A study of Homo sapiens with 20 samples.

Results

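The genes of DNA replication and mitosis were followed in tumors of OVCAR8, a human high-grade serous ovarian carcinoma cell line, by taking the rows of the deposited expression table that carry 44 listed symbols. All 44 were among the 24196 genes of the table, 21 of them genes of the S phase and 23 genes of mitosis. Of the 8 libraries, 4 came from orthotopic tumors of mice that received PBS and 4 from those of mice that received sodium gluconate, a compound that the study tested as an inhibitor of the contact between CHP1 and TMEM87A. In the study's efficacy experiment, both agents were injected i.p. once a week, and the cells were placed in the ovarian fat pad. The hosts were NSG mice in both arms. For that experiment the study names the cells OVCAR8-sgNC-luc, a luciferase-tagged line that carries the control guide sgNC in both arms, whereas the labels of these 8 libraries name only OVCAR8. Immunodeficient NSG mice lack mature T, B and NK cells but keep their own stroma and vessels, and the sources used here do not say whether reads of mouse origin were removed. The 12 cell line libraries of the series (sgCHP1, sgTMEM87A and sgNC) were not analysed here.

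The table names its columns C1 to C4 and T1 to T4. C was read as PBS and T as gluconate, since the study's plot of gluconate against PBS has T over C on its axis, and since the other groups have 3 libraries each. The text of the study calls these samples treated cells, whereas the labels, which were used here, call them tumors. Nothing in the labels says that each library came from a separate mouse, so p values measure the spread between these libraries.

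Cells license replication origins in G1 by loading the MCM2 to MCM7 ring onto DNA with CDC6 and CDT1. In S phase, CDC45 and the GINS complex turn the ring into an active helicase, DNA polymerases copy both strands on the PCNA clamp, and ribonucleotide reductase and thymidylate synthase supply the nucleotides. E2F transcription factors switch on most of these genes at the start of S phase. CDK1 with B-type cyclins then drives entry into mitosis, where Aurora and Polo-like kinases, kinesins and kinetochore proteins build the spindle, and the checkpoint holds the anaphase-promoting complex until every chromosome is attached. Transcription of the mitotic genes peaks later, in G2 and M, under the DREAM complex, B-MYB and FOXM1 at CHR elements, with NF-Y at CCAAT boxes. In a bulk tumor library, fewer cycling cells and less RNA per cycling cell cannot be told apart.

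The promoters of the S-phase and the mitotic members carried different motifs. RefSeq windows on GRCh38.p14, from 250 bases before to 50 bases after the start of a gene, held 36 of the 44 members, 18 S-phase and 18 mitotic. For MCM4, MCM5, CDK2, FOXM1, AURKA, TPX2, BIRC5 and TTK no window was matched. The windows were searched on both strands for the E2F motif (TTTCGCGC, TTTGGCGC, TTTCCCGC or TTTGCCGC), the CHR (TTTGAA or TTCGAA) and the NF-Y box (CCAAT). An E2F match may overlap a CCAAT match, and both were then counted. An E2F match lay in 14 of 18 S-phase windows (77.8%) and in 3 of 18 mitotic windows (16.7%), beside 3.33% of the 27305 windows in the table and 5.6% of the 9994 windows of tested genes. A CHR match lay in 2 of 18 S-phase windows (11.1%) and in 13 of 18 mitotic windows (72.2%), beside 16.6% of all windows and 10.8% of those of tested genes. The CCAAT box was frequent in both sets, with 14 of 18 S-phase windows (77.8%) and 16 of 18 mitotic windows (88.9%), beside 35.7% of all windows. A CHR and a CCAAT box stood together in 12 mitotic windows (66.7%) and in 2 S-phase windows (11.1%), beside 6.58% of all windows. For the 6 members with more than 1 window the first was used, and counting any window gave the same numbers. A match describes letters in a window and not a bound site.

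For each set, the windows of the 3 members with the largest difference between gluconate and PBS, among those whose window holds a motif, are shown. Members with differences of similar or larger size but no window (MCM5, TTK) or no motif in it (CENPE) are left out. Each is written 5′ to 3′ on the strand of its gene, with the E2F, CHR and CCAAT matches in capitals on either strand.
E2F2, chr1:23531184-23531483, minus strand: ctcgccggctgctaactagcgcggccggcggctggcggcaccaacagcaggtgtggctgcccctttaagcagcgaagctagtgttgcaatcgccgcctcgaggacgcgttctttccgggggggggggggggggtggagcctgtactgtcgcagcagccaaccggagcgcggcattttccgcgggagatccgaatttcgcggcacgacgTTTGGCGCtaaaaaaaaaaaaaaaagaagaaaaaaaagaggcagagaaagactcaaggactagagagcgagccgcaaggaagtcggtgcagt
E2F1, chr20:33686336-33686635, minus strand: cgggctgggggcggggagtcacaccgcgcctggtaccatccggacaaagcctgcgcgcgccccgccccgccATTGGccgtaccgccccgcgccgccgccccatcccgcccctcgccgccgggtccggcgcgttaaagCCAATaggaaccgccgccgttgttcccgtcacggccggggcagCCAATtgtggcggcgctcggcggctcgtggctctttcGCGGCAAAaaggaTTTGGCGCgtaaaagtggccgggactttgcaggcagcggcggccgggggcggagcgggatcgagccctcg
RRM2, chr2:10122489-10122788, plus strand: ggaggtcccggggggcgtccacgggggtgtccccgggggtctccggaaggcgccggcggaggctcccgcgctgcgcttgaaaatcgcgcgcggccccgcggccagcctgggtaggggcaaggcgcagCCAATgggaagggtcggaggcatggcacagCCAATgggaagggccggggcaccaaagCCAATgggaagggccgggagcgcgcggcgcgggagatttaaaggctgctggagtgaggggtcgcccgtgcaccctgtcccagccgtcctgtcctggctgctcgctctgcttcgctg
PLK1, chr16:23678639-23678938, plus strand: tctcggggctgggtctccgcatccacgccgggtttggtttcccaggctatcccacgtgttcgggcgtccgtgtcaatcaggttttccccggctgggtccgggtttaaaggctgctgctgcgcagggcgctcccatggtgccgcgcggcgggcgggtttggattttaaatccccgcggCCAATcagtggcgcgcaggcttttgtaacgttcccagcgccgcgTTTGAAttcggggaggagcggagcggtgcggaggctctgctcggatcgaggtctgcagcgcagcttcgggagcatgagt
KIF23, chr15:69414099-69414398, plus strand: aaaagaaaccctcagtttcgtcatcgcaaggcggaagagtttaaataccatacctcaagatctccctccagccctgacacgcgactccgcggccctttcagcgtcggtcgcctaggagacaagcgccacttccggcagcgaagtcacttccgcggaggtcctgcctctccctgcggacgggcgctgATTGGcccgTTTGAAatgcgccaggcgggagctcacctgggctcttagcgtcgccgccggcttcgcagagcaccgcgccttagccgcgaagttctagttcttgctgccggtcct
KIF11, chr10:92592880-92593179, plus strand: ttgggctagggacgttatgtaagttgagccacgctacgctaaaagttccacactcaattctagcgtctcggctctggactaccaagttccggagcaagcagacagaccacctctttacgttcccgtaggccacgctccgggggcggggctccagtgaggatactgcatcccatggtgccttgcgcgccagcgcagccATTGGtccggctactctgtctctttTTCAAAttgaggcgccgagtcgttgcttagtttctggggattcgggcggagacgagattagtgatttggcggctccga
Distances are counted from the RefSeq start on which each window is set. The windows of PLK1 and RRM2 lie downstream of the first base of these genes in GENCODE 29. In E2F1 the 2 E2F matches began 33 and 20 bases before the start, and the single match of E2F2 began 42 bases before its start. The RRM2 window held 3 CCAAT boxes, 123, 93 and 66 bases before the start, and no E2F or CHR match. The CHR of PLK1 began 29 bases, that of KIF11 28 bases and that of KIF23 55 bases before the start. A CCAAT box lay upstream of each of these CHR matches, at 73 bases in PLK1, 53 bases in KIF11 and 64 bases in KIF23.

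Levels are given in FPKM, the unit the authors deposited, which corrects a fragment count for gene length and library size, so that levels can be set side by side between genes. The FPKM of each gene came in steps of 1 fragment, from which the fragments in the denominator were computed. They numbered 3953206 for PBS replicate 4 and 39325749 to 46551535 for the other 7 libraries. The members had 20 to 1600 fragments each in PBS replicate 4 and at least 189 in every other library. PBS replicate 4 stood apart over the whole table, at 15514 genes above 0 against 19991 to 20251 in the others, so results are also given without it. Carcinoma markers were present in every library, with a summed FPKM of the 8 listed genes of 1808.1 to 2412.8 in PBS and 1670.3 to 2180.0 in gluconate, although MUC16 was at or near 0. PAX8 was between 32.4 and 50.7 FPKM and KRT8 between 699.7 and 1051.0 FPKM. The summed level of the 8 fibroblast markers was 44.7 to 183.8 FPKM in PBS, lowest in PBS replicate 4, and 163.5 to 190.0 FPKM in gluconate. COL1A1 made up most of it, while DCN, PDGFRA, COL1A2 and THY1 were at or below 0.125 FPKM in every library. The 6 endothelial markers summed to at most 0.707 FPKM, and HBA1 and HBB of red blood cells to at most 0.34 FPKM. Of the leukocyte markers, which summed to 20.2 to 28.8 FPKM, CD68 was at 19.7 FPKM or more and PTPRC, the common leukocyte antigen, at or below 0.0165 FPKM.

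All 44 members were expressed in every library. PCNA, the replication clamp, was the highest of them in 8 of 8 libraries, with a mean of 191.3 FPKM, followed by TYMS (137.5), CDC20 (103.9), TPX2 (103.2), CCNB1 (95.9) and MCM4 (93.6). E2F2, an activator E2F, was the lowest in 8 of 8 libraries, with a mean of 1.18 FPKM. By mean level, 42 of the 44 members lay above the median of the 12486 genes tested, and the lowest lay at the 13.6th percentile.

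**Figure D1:**
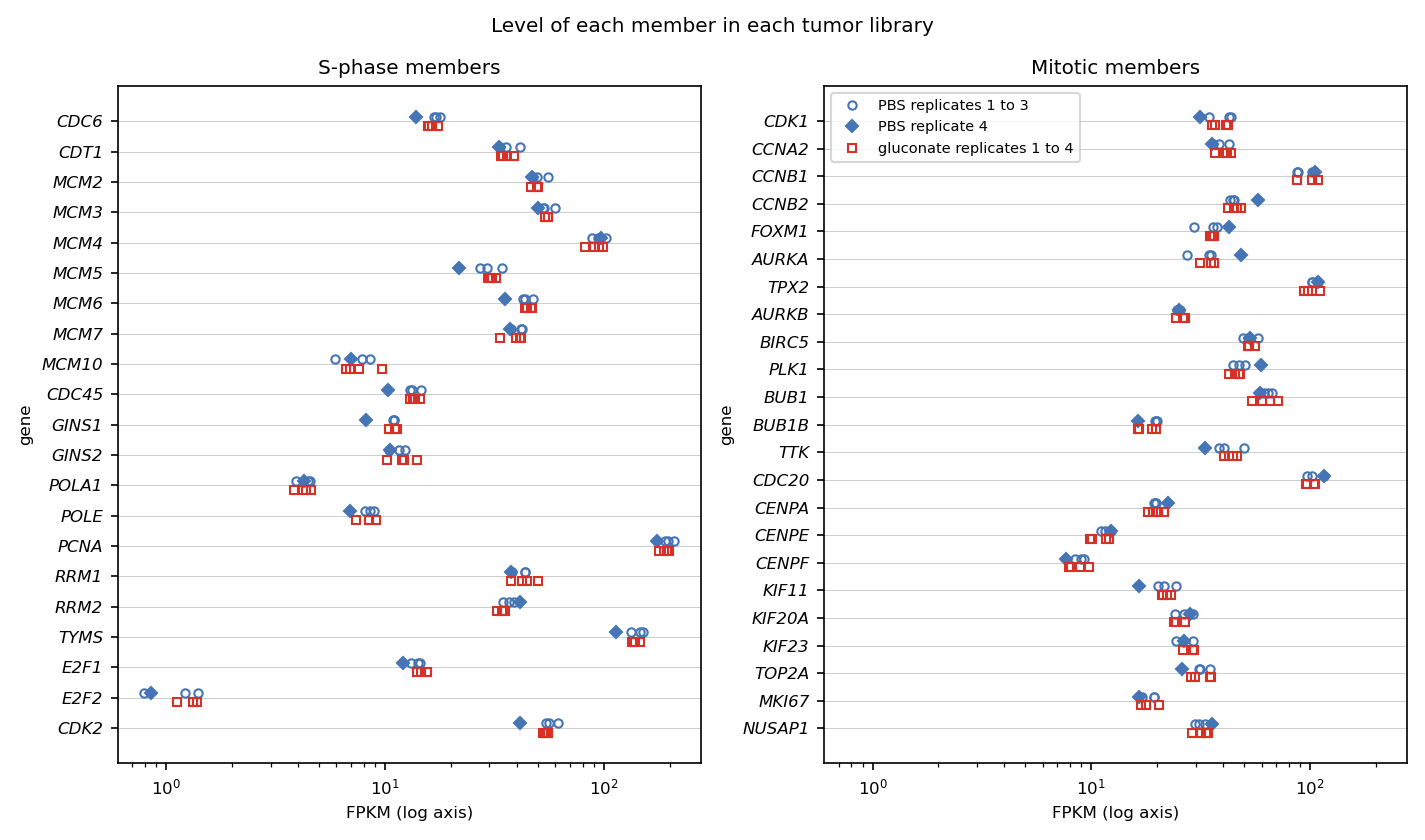
FPKM (x axis, log scale) of each of the 21 S-phase members (left) and 23 mitotic members (right) in each library; circles are PBS replicates 1 to 3, filled diamonds PBS replicate 4 and squares gluconate replicates 1 to 4. The gluconate squares overlap the range of the PBS symbols in every gene, and PBS replicate 4 lies below the rest for MCM5, GINS1 and CDK2 and above it for AURKA, CCNB2 and PLK1.

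No member passed the test between gluconate and PBS. With limma on log2(FPKM + 0.1), 0 of 44 members were lower and 0 were higher at an unadjusted p under 0.05, where 1.49% of the 12486 genes tested were lower and 3.13% higher. By limma's voom on the recovered fragments the count was also 0. None had an adjusted p under 0.05 (limma, Benjamini-Hochberg, 0.74 to 0.997), as for all genes tested (0.0%, smallest adjusted p 0.74). The groups overlapped in each of the 44 members, while they did not overlap in 3.49% of the genes tested. The smallest unadjusted p among the members was 0.0836, for RRM2. By the two-sided exact permutation test over all 70 ways to label the libraries (smallest possible p 0.0286), the smallest p of a member was 0.0857, also for RRM2. With PBS replicate 4 left out, the counts at an unadjusted p under 0.05 were again 0 lower and 0 higher, where 3.36% of the 12530 genes then tested were lower and 2.85% higher. The groups then overlapped in all 44 members as well, and did not overlap in 6.1% of the genes tested.

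The estimates were narrow. The 95% interval of the fold change lay within 2-fold in either direction for 44 of 44 members, within 1.5-fold for 43 and within 1.2-fold for 19, beside 88.3%, 64.6% and 13.5% of all genes tested and 95.9%, 85.1% and 29.3% of the 4916 tested genes whose mean FPKM reached 10. E2F2 was the member whose interval reached past 1.5-fold. When PBS replicate 4 was left out, 35 members had an interval within 1.2-fold (79.5%), beside 31.5% of the genes tested. The spread between replicates of a group had a median of 0.13 over the members and 0.21 over all genes tested, as an SD on the log2 scale, and 41 members were below the latter. Over the tested genes whose mean FPKM reached 10 it was 0.15.

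**Figure D2:**
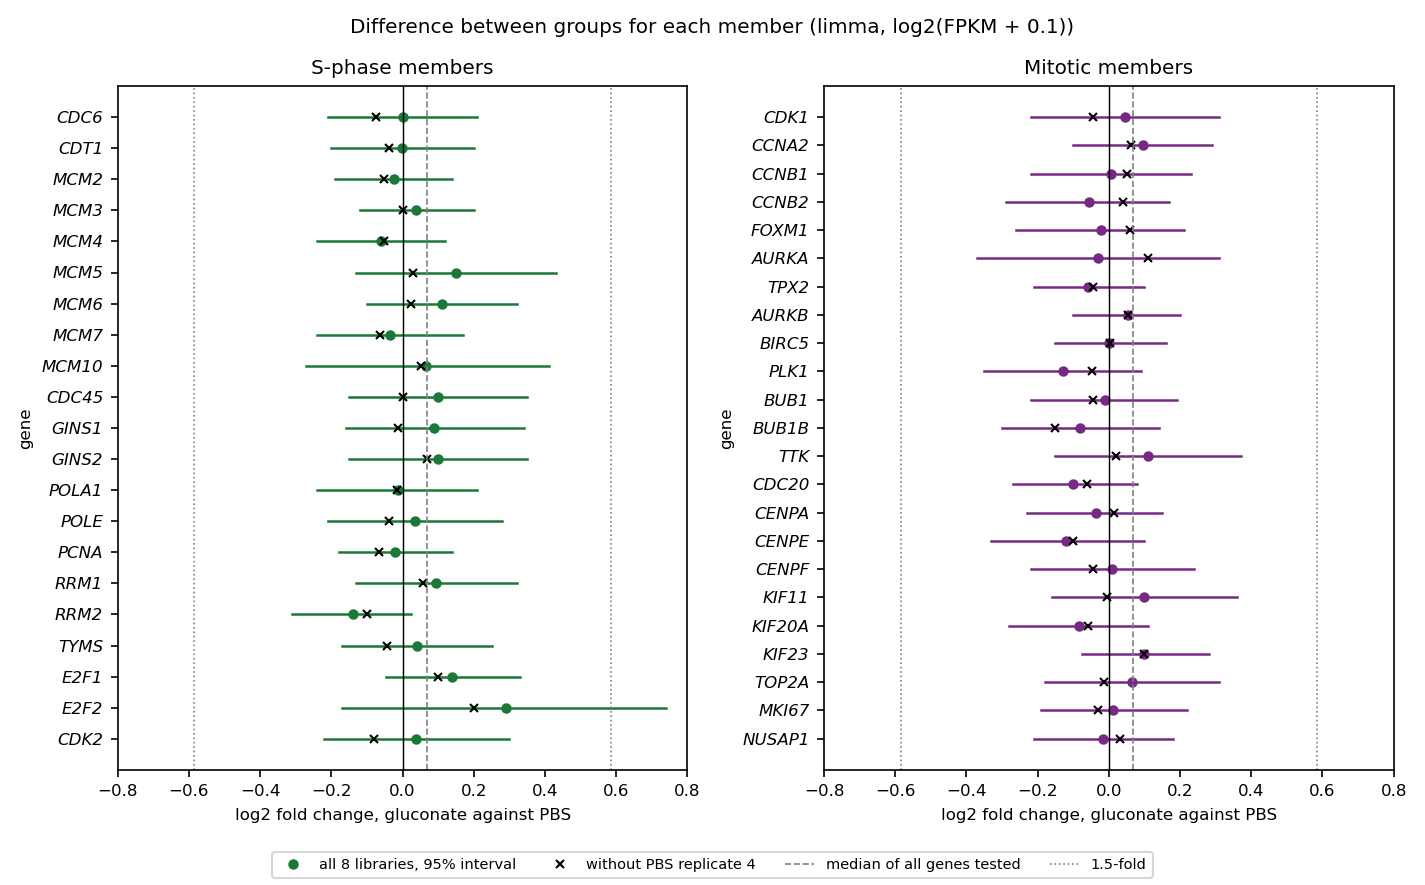
Log2 fold change of gluconate against PBS (x axis) for each S-phase member (left) and mitotic member (right), with the 95% interval from limma over all 8 libraries; crosses leave out PBS replicate 4, the dashed line is the median of all genes tested (0.069) and dotted lines mark 1.5-fold. Every interval includes 0, and that of E2F2 alone passes a dotted line.

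Among the 8 genes of helicase loading, 4 had a positive and 4 a negative log2 fold change, with a median of -0.00051 and a range of -0.06 to 0.15. Without PBS replicate 4, 3 were positive and 5 negative, with a median of -0.045. MCM2, a subunit of the ring, was at 47.5, 55.5, 49.6 and 46.9 FPKM in the 4 PBS tumors and at 49.8, 49.7, 49.8 and 46.7 FPKM in the 4 gluconate tumors. The gluconate values lay within the PBS range except for replicate 4, the lowest of all, and the log2 fold change was -0.023 ± 0.073 (SE). MCM5 was at 29.3, 34.3, 27.1 and 21.8 FPKM in PBS and at 30.2, 31.0, 32.1 and 29.7 FPKM in gluconate. Its log2 fold change of 0.15 (95% interval -0.13 to 0.43) was the second most positive of the S-phase members. The lowest MCM5 value was that of PBS replicate 4, and without this library the log2 fold change was 0.03 (95% interval -0.16 to 0.21). MCM4 was at 94.2, 102.4, 88.7 and 96.9 FPKM in PBS and at 95.5, 99.1, 90.2 and 82.2 FPKM in gluconate, with a log2 fold change of -0.06 ± 0.079 (SE). MCM7 gave 37.8, 41.9, 42.4 and 37.3 FPKM in PBS against 41.2, 41.8, 39.6 and 33.5 FPKM in gluconate, and a log2 fold change of -0.034 ± 0.091 (SE). Although the ring holds 1 copy of each subunit, MCM4 was the highest and MCM5 the lowest of MCM2 to MCM7 in 8 of 8 libraries. The ratio of the MCM4 to the MCM5 level was 2.77 to 4.45, highest in PBS replicate 4. The loaders CDC6 (13.9 to 17.9 FPKM) and CDT1 (33.2 to 41.5 FPKM) had log2 fold changes of 0.0012 and -0.0023. MCM3 was at 49.9 to 59.7 FPKM and MCM6 at 35.3 to 47.4 FPKM, with log2 fold changes of 0.038 and 0.11. In the 7 libraries other than PBS replicate 4, the log2 fold changes were -0.051 for MCM2, 0.0013 for MCM3, -0.053 for MCM4, 0.025 for MCM6, -0.064 for MCM7, -0.076 for CDC6 and -0.038 for CDT1.

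All 4 genes of origin firing had a positive log2 fold change, from 0.067 for MCM10 to 0.10 for CDC45 and GINS2, none past the test, where 66.4% of all genes tested were positive with a median of 0.069. Their levels were moderate, between 5.93 FPKM for MCM10 in PBS replicate 3 and 14.7 FPKM for CDC45 in PBS replicate 2. GINS1 was at 8.2 FPKM in PBS replicate 4 and between 10.5 and 11.3 FPKM in the other 7 libraries. Without PBS replicate 4 its log2 fold change went from 0.089 to -0.013, and that of CDC45 from 0.10 to 0.00046. MCM10 and GINS2 were then at 0.051 and 0.068, so 3 of the 4 were positive. POLA1, the catalytic subunit of the polymerase that starts each strand, and POLE, the polymerase of the leading strand, were at 3.85 to 4.56 and 6.95 to 9.08 FPKM. Their log2 fold changes were -0.014 and 0.034. PCNA was at 209.8, 195.6, 190.6 and 175.4 FPKM in PBS and at 193.9, 178.9, 187.9 and 198.4 FPKM in gluconate, all within the PBS range. The log2 fold change of PCNA was -0.021 (95% interval -0.18 to 0.14). With PBS replicate 4 left out, the values were -0.066 for PCNA, -0.016 for POLA1 and -0.038 for POLE.

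RRM2, the regulated small subunit of ribonucleotide reductase, had the most negative log2 fold change of all members. Its level was 34.7, 36.9, 38.9 and 41.3 FPKM in PBS and 34.97, 35.23, 34.38 and 32.62 FPKM in gluconate. PBS replicate 1 lay inside the gluconate range, while the other 3 PBS libraries lay above all gluconate libraries. The means were 38.0 ± 2.78 FPKM (SD, n = 4) and 34.3 ± 1.18 FPKM (SD, n = 4), and the exact permutation p was 0.0857. The log2 fold change was -0.14 (95% interval -0.31 to 0.023), and -0.10 (95% interval -0.25 to 0.04) without PBS replicate 4. Leaving out PBS replicate 1 gave a log2 fold change of -0.19 with an unadjusted limma p of 0.0375 for RRM2, and 0.22 with 0.0451 for TTK. In that fit, 2.31% of the genes tested were lower and 7.43% higher. RRM1, the large subunit, had a log2 fold change of 0.094 in the other direction, at 37.7 to 49.9 FPKM. The ratio of RRM1 to RRM2 was 1.26, 1.18, 0.98 and 0.913 in PBS and 1.21, 1.42, 1.3 and 1.16 in gluconate, so the groups overlapped. TYMS, thymidylate synthase, was at 113.9 FPKM in PBS replicate 4 and 133.0 to 150.6 FPKM elsewhere, with a log2 fold change of 0.04. When PBS replicate 4 was left out, the log2 fold change was -0.043 for TYMS and 0.056 for RRM1.

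The 3 genes that control entry into S phase had positive log2 fold changes, 0.29 for E2F2, 0.14 for E2F1 and 0.039 for CDK2, and none passed the test. E2F1 was at 14.4, 14.2, 13.2 and 12.1 FPKM in PBS and at 14.0, 14.6, 15.5 and 15.5 FPKM in gluconate. Gluconate replicate 1 was the only gluconate library below any PBS library for E2F1, and the exact permutation p was 0.114. The E2F1 estimate was 0.10 (95% interval -0.06 to 0.25) without PBS replicate 4. E2F2 was at 1.21, 1.40, 0.794 and 0.847 FPKM in PBS and at 1.32, 1.32, 1.12 and 1.38 FPKM in gluconate. PBS replicates 3 and 4 were low and PBS replicate 2 was the highest of all. The 95% interval of the E2F2 log2 fold change, -0.17 to 0.74, was the widest of the members, and PBS replicate 4 held 20 fragments of the gene. Without that library the E2F2 estimate was 0.20 (95% interval -0.22 to 0.61). CDK2 was at 41.3 FPKM in PBS replicate 4 and between 53.0 and 61.5 FPKM in the other libraries, and its log2 fold change was -0.081 without PBS replicate 4, the only negative one of the 3 genes in that comparison.

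Among CDK1, the cyclins and FOXM1, 3 of 5 log2 fold changes were positive, from -0.057 for CCNB2 to 0.095 for CCNA2. CDK1, the kinase that drives mitotic entry, was at 42.5, 34.7, 43.5 and 31.3 FPKM in PBS and at 41.4, 42.1, 36.8 and 35.5 FPKM in gluconate. All gluconate values of CDK1 lay within the PBS range, and the log2 fold change was 0.045 (95% interval -0.22 to 0.31). CCNB1, cyclin B1, was at 102.2, 87.3, 88.2 and 105.1 FPKM in PBS and at 101.7, 109.0, 86.8 and 87.0 FPKM in gluconate. In both groups 2 libraries were near 87 to 88 and 2 above 101 FPKM, and the log2 fold change was 0.0046 ± 0.10 (SE). CCNB1 was 1.82 to 2.36 times as abundant as CCNB2. FOXM1, the transcription factor of G2 and M genes, was at 29.5 to 42.7 FPKM in PBS and at 34.95 to 36.42 FPKM in gluconate, with a log2 fold change of -0.022. In the 7 libraries other than PBS replicate 4, the log2 fold changes were -0.044 for CDK1, 0.063 for CCNA2, 0.051 for CCNB1, 0.04 for CCNB2 and 0.059 for FOXM1, so 4 of 5 were positive.

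The mitotic kinases and their partners had a median log2 fold change of -0.032, with 2 positive and 3 negative, and of 0.0038 without PBS replicate 4, with 3 positive and 2 negative. PLK1, Polo-like kinase 1, had the most negative value of the mitotic members, -0.13 (95% interval -0.35 to 0.089). It was at 44.3, 50.2, 47.4 and 59.4 FPKM in PBS and at 48.1, 47.5, 42.4 and 45.3 FPKM in gluconate. PBS replicate 4 was the highest PLK1 library, and without it the log2 fold change was -0.047 (95% interval -0.20 to 0.11). AURKA, the centrosomal Aurora kinase, was at 34.5, 35.3, 27.3 and 48.2 FPKM in PBS and at 36.3, 36.5, 35.1 and 31.5 FPKM in gluconate. The highest and the lowest AURKA libraries were both in the PBS group. Its log2 fold change was -0.032 (95% interval -0.37 to 0.31) and took the other sign, 0.11 (95% interval -0.11 to 0.33), without PBS replicate 4. TPX2, which activates AURKA on the spindle, was 2.25 to 3.74 times as abundant as AURKA and had a log2 fold change of -0.059. AURKB and BIRC5, both of the chromosomal passenger complex, varied little, at 24.3 to 26.9 and 49.4 to 57.5 FPKM, with log2 fold changes of 0.053 and 0.00094. Without PBS replicate 4 the values were -0.045 for TPX2, 0.055 for AURKB and 0.0038 for BIRC5.

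Of the 4 checkpoint and APC/C genes, TTK had a positive value and 3 had negative ones. TTK, the kinase at the top of the checkpoint, was at 50.1, 40.5, 38.4 and 33.2 FPKM in PBS and at 44.3, 46.2, 40.5 and 42.6 FPKM in gluconate, all within the PBS range. The log2 fold change of TTK was 0.11 (95% interval -0.15 to 0.37), and 0.021 without PBS replicate 4. CDC20, which activates the anaphase-promoting complex, was at 97.2, 115.2, 102.3 and 115.2 FPKM in PBS and at 105.1, 104.4, 95.3 and 96.7 FPKM in gluconate, with a log2 fold change of -0.10 ± 0.078 (SE). BUB1 was 3.12 to 3.66 times as abundant as BUB1B, its partner at the kinetochore. BUB1 and BUB1B had log2 fold changes of -0.012 and -0.081. With PBS replicate 4 left out, BUB1B had the most negative value of the members, -0.15 (95% interval -0.33 to 0.034), and CDC20 and BUB1 were at -0.062 and -0.046.

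CENPE, the kinesin that carries chromosomes to the spindle equator, was at 12.3, 11.5, 11.0 and 12.3 FPKM in PBS and at 12.0, 11.7, 10.0 and 9.85 FPKM in gluconate. Gluconate replicates 3 and 4 were below all PBS libraries and the other two lay within their range, and the log2 fold change was -0.12 ± 0.095 (SE). CENPA, the centromeric histone, and CENPF had log2 fold changes of -0.037 and 0.0083. KIF11, which pushes spindle poles apart, was at 21.5, 20.2, 24.5 and 16.5 FPKM in PBS and at 22.2, 23.2, 21.2 and 21.02 FPKM in gluconate. Its log2 fold change was 0.10 (95% interval -0.16 to 0.36), and -0.0047 without PBS replicate 4, the lowest library. KIF23, a kinesin of the central spindle, was at 29.03, 26.4, 24.3 and 26.6 FPKM in PBS and at 29.2, 29.4, 26.2 and 29.2 FPKM in gluconate. For KIF23, 3 gluconate libraries lay just above the highest PBS library, and the log2 fold change was 0.10 ± 0.079 (SE), with the same value of 0.10 without PBS replicate 4. KIF20A, another kinesin of late mitosis, had a log2 fold change of -0.084. When PBS replicate 4 was left out, the values were -0.10 for CENPE, 0.013 for CENPA, -0.046 for CENPF and -0.059 for KIF20A.

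The markers of cycling cells that pathologists use showed the same overlap. MKI67, the gene of the Ki-67 antigen, was at 17.0, 19.3, 19.3 and 16.5 FPKM in PBS and at 17.7, 20.3, 17.7 and 16.9 FPKM in gluconate. The means were 18.0 ± 1.49 and 18.2 ± 1.49 FPKM (SD, n = 4 each), and the log2 fold change was 0.011 (95% interval -0.19 to 0.22). TOP2A, topoisomerase II alpha, was at 34.8, 31.3, 31.1 and 26.0 FPKM in PBS and at 34.97, 35.3, 29.8 and 28.7 FPKM in gluconate. The log2 fold change of TOP2A was 0.065 (95% interval -0.18 to 0.31), and -0.014 without PBS replicate 4. NUSAP1, a spindle microtubule protein, had a log2 fold change of -0.016, and without PBS replicate 4 NUSAP1 was at 0.031 and MKI67 at -0.03.

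Both sets had medians near 0. The median log2 fold change was 0.039 for the S-phase members, 14 positive and 7 negative, and -0.012 for the mitotic members, 11 positive and 12 negative, beside 0.069 over all genes tested, of which 66.4% were positive. The median size of the log2 fold change, whatever its sign, was 0.06, 0.057 and 0.13 in the same order, and 0.10 over the tested genes whose mean FPKM reached 10. In the 7 libraries other than PBS replicate 4, the medians were -0.016 for the S-phase members, 9 positive and 12 negative, -0.0047 for the mitotic members, 11 positive and 12 negative, and -0.0031 for all genes, and 49.1% of the genes then tested were positive. The difference of the medians, S-phase minus mitotic, was 0.051 with all libraries, -0.012 without PBS replicate 4 and 0.0031 by voom on the recovered fragments of all libraries. Averaged over the members, the S-phase level in log2(FPKM + 0.1) was 4.58 ± 0.119 in PBS and 4.63 ± 0.0562 in gluconate (SD, n = 4 each). The PBS level was 4.63 ± 0.069 (SD, n = 3) without PBS replicate 4. For the mitotic members it was 5.09 ± 0.0317 and 5.08 ± 0.0894 (SD, n = 4 each), and 5.09 ± 0.0382 (SD, n = 3) in PBS without that library. The S-phase mean minus the mitotic mean was -0.48, -0.39, -0.48 and -0.67 in the PBS libraries and -0.54, -0.47, -0.37 and -0.44 in the gluconate libraries. PBS replicate 4 had the lowest value of all 8, and the remaining PBS libraries lay within the gluconate range.

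**Figure D3:**
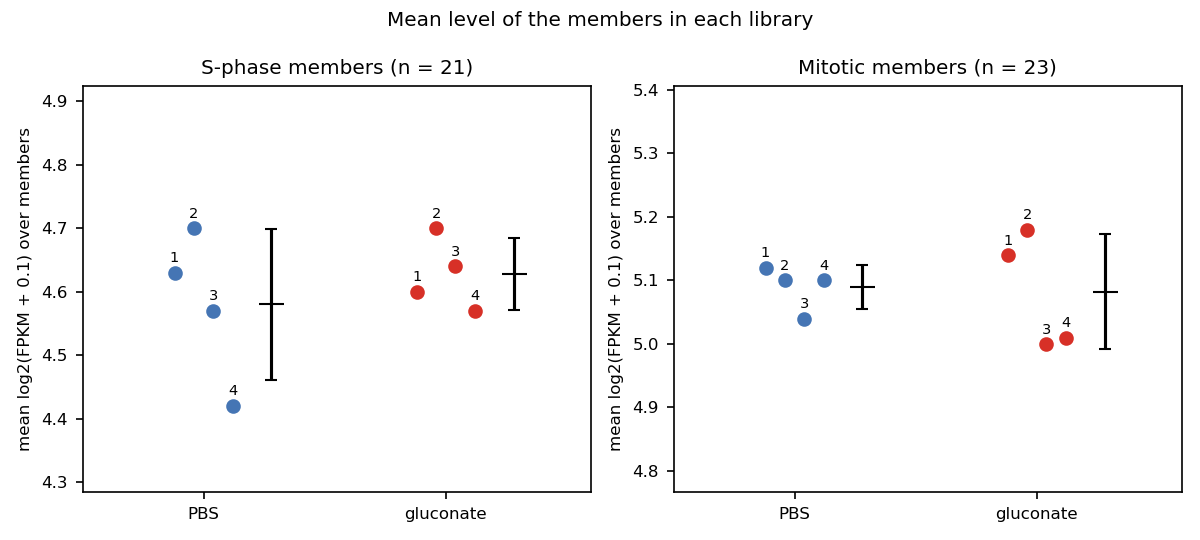
Mean of log2(FPKM + 0.1) (y axis) over the 21 S-phase members (left) and the 23 mitotic members (right) in each library, by group (x axis); numbers are replicates and bars are the group mean and SD. PBS replicate 4 is lowest for the S-phase members (4.42) and inside the range for the mitotic members (5.10), and gluconate replicates 3 and 4 are lowest for the latter (5.00 and 5.01).

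The gluconate libraries differed among themselves, in median by more over the mitotic than over the S-phase members. Replicate 2 of this group had the highest level in 13 of 21 S-phase and 17 of 23 mitotic members, and replicate 1 in the remaining 6 mitotic members. Replicates 3 and 4 had the lowest level in 10 and 13 mitotic members, and replicate 4 also in 11 S-phase members. Their median differences from the other 7 libraries over the mitotic members were -0.10 and -0.11 on the log2 scale, and those of replicates 1 and 2 were 0.076 and 0.11. Over the S-phase members, the median differences of replicates 1 to 4 were -0.017, 0.073, 0.03 and -0.043. Over all genes tested, the same differences lay between -0.031 and 0.057 in the gluconate libraries, highest in replicate 2. The share of all genes with their highest or lowest level in each library was not computed.

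PBS replicate 4 was where both sets came apart most. Relative to the median of the other 7 libraries, the median log2 difference was -0.22 over the S-phase members and 0.035 over the mitotic members, beside -0.28 over all genes tested and -0.17 over the tested genes whose mean FPKM reached 10. It was below all other libraries in 13 of 21 S-phase members and 7 of 23 mitotic members, where 58.0% of all genes tested were, and above all others in 1 S-phase member, RRM2, and 7 mitotic members, where 13.7% of all genes tested were. The 7 were AURKA, CCNB2, PLK1, FOXM1, CENPA, CDC20 and NUSAP1, and the 7 below were CDK1, KIF11, TTK, TOP2A, CENPF, CCNA2 and MKI67. AURKA was at 48.2 FPKM from 575 fragments, with a 95% Poisson interval of 44.3 to 52.3 FPKM that covers counting error only, against at most 36.5 FPKM elsewhere. CCNB2 was at 57.6 FPKM (95% Poisson interval 51.7 to 64.1) against at most 48.2 FPKM. MCM5 was at 21.8 FPKM (95% Poisson interval 19.5 to 24.2) against at least 27.1 FPKM, and CDK2 at 41.3 FPKM (95% Poisson interval 37.3 to 45.6) against at least 53.0 FPKM. The Poisson interval lay wholly below the other 7 libraries in 7 S-phase and 4 mitotic members, and wholly above them in 4 mitotic members. Poisson intervals were not computed over all genes tested, so there is no share to set these counts against. Of the mitotic members, those above had a median gene length of 2160 bases and those below 5016 bases. Of the S-phase members, those below had a median gene length of 3404 bases and those within the range 4178 bases. Spearman's rho of the difference with length was -0.3 over the 44 members, as a description, while over all genes tested it was -0.0058. COL1A1 was at 41.4 FPKM in PBS replicate 4 and 120.9 to 182.1 FPKM elsewhere. Of the carcinoma markers, WT1 was above the others, at 6.58 against 1.07 to 1.82 FPKM. PAX8 (32.4 against 38.0 to 50.7 FPKM), EPCAM (10.3 against 15.7 to 22.3 FPKM) and KRT7 (124.5 against 185.0 to 392.6 FPKM) were below. MSLN, KRT8 and KRT18 lay within the range of the other libraries. The part of depth, gene length and cell content in this library's values was not tested.

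**Figure D4:**
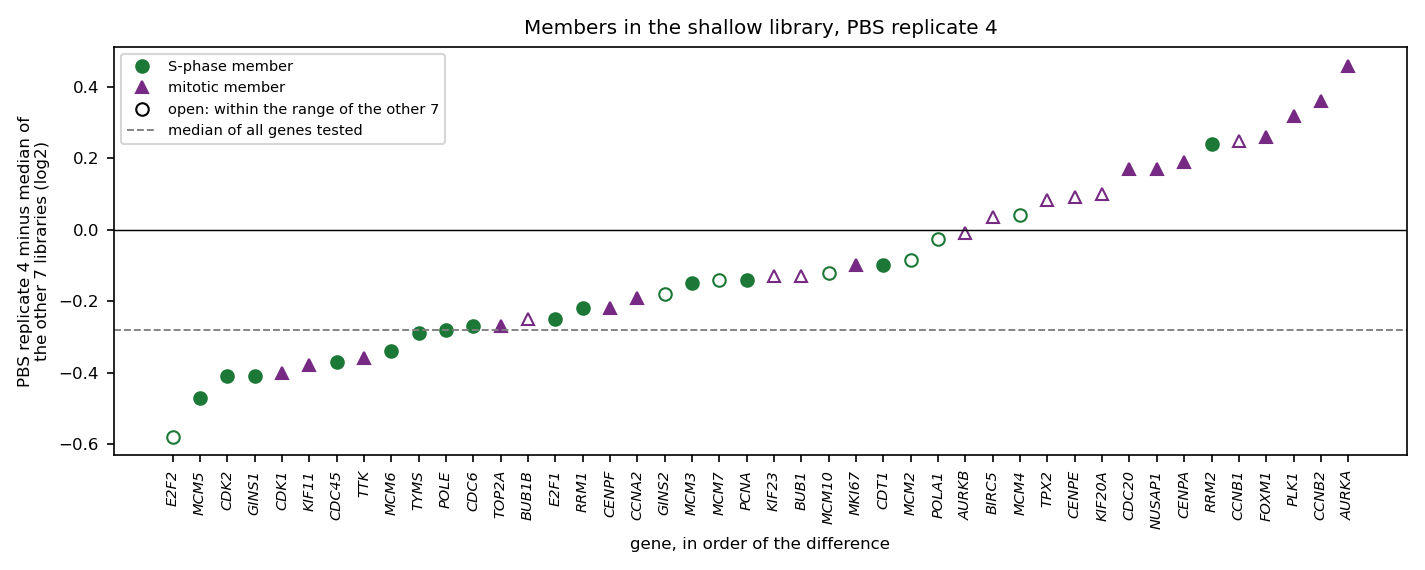
Log2 level of each member in PBS replicate 4 minus the median of the other 7 libraries (y axis), genes in order of this difference (x axis); circles are S-phase and triangles mitotic members, filled where the value is outside the range of the other 7, and the dashed line is the median of all genes tested (-0.28). The right end holds AURKA, CCNB2, PLK1, FOXM1 and CCNB1, and the left end mostly S-phase members.

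Other genes of the same pathways were counted by the same rule, where 1.49% of all genes tested were lower and 3.13% higher with all libraries, and 3.36% and 2.85% without PBS replicate 4. Of 55 further replication genes, all tested, 1 was higher and 1 lower at an unadjusted p under 0.05, with a median log2 fold change of 0.04 (36 positive, 19 negative). Without PBS replicate 4 the median was -0.045 (16 positive, 39 negative), with 1 higher and 3 lower. RFC4 and RFC3, both subunits of the clamp loader, were the genes past the test with all libraries. RFC4 was at 68.5, 64.2, 64.0 and 59.1 FPKM in PBS and at 70.6, 76.1, 72.2 and 69.9 FPKM in gluconate, so the groups did not overlap. Its log2 fold change was 0.18 ± 0.068 (SE), with an unadjusted limma p of 0.0291 and an adjusted p of 0.74. RFC3 was at 4.83, 5.70, 4.97 and 4.34 FPKM in PBS and at 4.27, 4.16, 3.47 and 3.68 FPKM in gluconate, again without overlap. The log2 fold change of RFC3 was -0.34 ± 0.12 (SE), with an unadjusted limma p of 0.0187 and an adjusted p of 0.74. Leaving out PBS replicate 4 gave 0.14 for RFC4 and -0.40 for RFC3, both still at an unadjusted p under 0.05. The other two lower genes were then ORC1, of the origin recognition complex, and UHRF1, of maintenance methylation, at -0.25 and -0.23 against -0.13 and -0.076 with all libraries, named after their values were seen. The groups did not overlap in 4 of these 55 genes (7.27%), RFC4, RFC3, DBF4 and DONSON, beside 3.49% of all genes tested, and without PBS replicate 4 in 6 of 55, beside 6.1%.

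Of 70 further mitosis genes, all tested, 1 was higher and 2 were lower at an unadjusted p under 0.05, and the median log2 fold change was 0.0088. With PBS replicate 4 left out, 1 was higher and 3 were lower, and the median was -0.022. UBE2S, which extends ubiquitin chains for the anaphase-promoting complex, was at 50.1, 65.3, 63.9 and 73.4 FPKM in PBS and at 48.1, 41.5, 43.7 and 47.6 FPKM in gluconate, so the groups did not overlap. Its log2 fold change was -0.47 ± 0.11 (SE), with an unadjusted limma p of 0.00241 and an adjusted p of 0.74, and -0.39 without PBS replicate 4. DEPDC1 was 17.4 ± 1.81 FPKM in PBS and 13.9 ± 1.42 FPKM in gluconate (SD, n = 4 each), a log2 fold change of -0.32 with an unadjusted limma p of 0.0151. MELK, a kinase of cycling cells, was 29.05 ± 3.16 FPKM in PBS and 34.1 ± 2.18 FPKM in gluconate (SD, n = 4 each), a log2 fold change of 0.23 with an unadjusted limma p of 0.0327. Both had an adjusted p of 0.74 by limma, and without PBS replicate 4 they were at -0.26 and 0.23. The gene lower only in the latter fit was NCAPD3, a condensin subunit, at -0.24 against -0.22 with all libraries, named after its values were seen. UBE2S was the 1 gene of these 70 (1.43%) whose groups did not overlap, beside 3.49% of all genes tested. Without PBS replicate 4 CDC25C joined it, which made 2 of 70, beside 6.1% of the genes then tested. Among 30 genes of the passage through G1 (D- and E-type cyclins with their kinases, CDC25A, CDK inhibitors, the RB family, other E2F and DP factors and subunits of the DREAM complex), of which 29 were tested, 1 was higher and 0 lower, with a median log2 fold change of 0.0019. When PBS replicate 4 was left out, 0 were higher and 2 lower, with a median of -0.033. The 2 were CDKN1A, the p21 inhibitor, at -0.52, and E2F7, a repressor E2F, at -0.33, against -0.43 and -0.18 with all libraries, named after their values were seen. CDKN2B, the p15 inhibitor of CDK4 and CDK6, was at 6.98, 6.58, 6.18 and 5.14 FPKM in PBS and at 7.07, 7.10, 7.63 and 10.0 FPKM in gluconate. It had a log2 fold change of 0.34 ± 0.14 (SE) and an unadjusted limma p of 0.0378 (adjusted p = 0.74), and 0.25 with an unadjusted p of 0.0652 without PBS replicate 4. The groups did not overlap in 3 of the 29 genes (10.3%), CDKN2B, CDKN1A and CDC25A, beside 3.49% of all genes tested. Without PBS replicate 4 they did not overlap in 4 of the 29, E2F7 being the added gene, beside 6.1% of the genes then tested.

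Exons of another gene on the opposite strand overlap 11 of the members in GENCODE 29, and for 9 of them that gene is in the table as well. These include AP4M1 at MCM7, ENOSF1 at TYMS, PMEL at CDK2, EXOSC9 at CCNA2 and ERN2 at PLK1. Since no source states that fragments were counted by strand, fragments of such pairs cannot be told apart.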

How the data were processed

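The authors deposited FPKM values of 24196 genes for 8 tumor libraries of polyA RNA. The submitters' processing notes name the build GRCh38, and the aligner, counting, annotation and strand setting are not given in the sources used here. Whole fragments were recovered from the steps of the FPKM values, and PBS replicate 4 held 3953206 fragments against 39325749 to 46551535 in the others. All columns were used, and 0 were left unmatched.

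Groups were compared with limma 3.58.1 in R 4.3.3 (lmFit, eBayes with a trend) on log2(FPKM + 0.1), keeping 12486 genes whose mean FPKM reached 0.5. Adjusted p values are Benjamini-Hochberg values over these genes. Fold changes on this scale are understated in low genes. The exact permutation test (two-sided) was run on single members. Intervals are 95% intervals of limma or, for fragments, exact Poisson intervals, which cover counting error only. The fit was run on simulated data with changes larger than the differences of the members, so it was not tested for differences of their size. Computations used Python 3.11.15, numpy 2.4.6, scipy 1.17.1, pandas 2.3.3 and matplotlib 3.10.9.

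The members and gene lists were chosen with earlier results of these data known. All members are named. Values in every library are given for the 3 highest and 3 lowest log2 fold changes of the S-phase and of the mitotic members and for MCM2, PCNA, E2F1, RRM2, CDK1, CCNB1, MKI67, TOP2A, AURKA and PLK1, and would be given for members that passed the test or whose groups did not overlap. Of the other lists, genes at an unadjusted p under 0.05 are named, at most 5 a list. Other members' values, ratios between members and places of PBS replicate 4 were chosen after their values were seen. Alternatives were pseudocounts of 1 and 0.01, no filter, a mean FPKM of at least 1, median-ratio scaling, quantile normalization, a replicate block, voom on the recovered fragments, and leaving out each library. RefSeq promoter windows of GRCh38.p14 were matched by symbol. Of 36 matched windows, 28 ended along a GENCODE 29 transcript of the gene and 0 against it.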

Additional observations from a re-analysis of the deposited data

Results flagged for a closer look

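Of 96 groups of 4 libraries examined, for each member in each treatment, the list means and the depth, 7 held a value far from the other 3 by Dixon's criterion, the gap over the range at the 95% level, where chance gives about 1 in 20, or 4.8. In 5 of the 7 the library was PBS replicate 4. Its fragments, 3953206, lay far below the 39895393 to 46551535 of the other PBS libraries. GINS1 was at 8.2 FPKM in it against 10.8 to 11.0 in the other PBS tumors, and BUB1B at 16.4 FPKM against 19.5 to 19.9. CCNB2 was at 57.6 FPKM in PBS replicate 4 against 42.8 to 44.8, and CENPA at 22.4 FPKM against 19.2 to 19.8. In the gluconate group, MCM2 was at 46.7 FPKM in replicate 4 against 49.7 to 49.8 in the others. KIF23 was at 26.2 FPKM in gluconate replicate 3 against 29.2 to 29.4 in the others.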

How the results depend on the processing

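No gene had an adjusted p under 0.05 under any of the 16 alternatives, and 0 members passed an unadjusted p under 0.05 except without PBS replicate 1, where RRM2 was lower and TTK higher. Leaving out each library in turn gave 0 to 1 members lower, 0 to 1 higher and 0 to 2 members whose groups did not overlap, while over all genes the shares were 0.874% to 3.36% lower, 1.27% to 7.43% higher and 4.91% to 11.4% without overlap. Median-ratio scaling left 1 member, BUB1B, without overlap, beside 4.09% of all genes. Median-ratio scaling took the S-phase median from 0.039 to -0.027 and the mitotic median from -0.012 to -0.078. It took the median of all genes tested from 0.069 to 0.0052. The spreads of the list levels between replicates were 0.0931 and 0.067 (SD pooled over both groups). The other alternatives over all libraries moved the S-phase and mitotic medians less. Leaving out 1 library gave -0.016 to 0.081 for the S-phase and -0.05 to 0.016 for the mitotic members, and their difference was -0.012 to 0.086. Signs under the alternatives were followed here only for the members shown with values in every library. Several of their log2 fold changes near 0 took the other sign, none past the test. With median-ratio scaling these were CDK1 (-0.02), CCNB1 (-0.061), TOP2A (-0.0011) and MKI67 (-0.055), with quantile normalization CCNB1 (-0.02) and MKI67 (-0.012), and with voom CDK1 (-0.0029), AURKA (0.051) and MKI67 (-0.0067). Leaving out each library, the range was -0.051 to 0.03 for MCM2, -0.068 to 0.038 for MCM7, -0.066 to 0.02 for PCNA, -0.044 to 0.11 for CDK1, -0.058 to 0.051 for CCNB1, -0.16 to 0.11 for AURKA, -0.0047 to 0.18 for KIF11, -0.014 to 0.13 for TOP2A and -0.044 to 0.045 for MKI67. For RRM2 it was -0.19 to -0.10 and for TTK 0.021 to 0.22. The cause was not tested. The labels do not say whether the replicate numbers pair the libraries. Same-numbered libraries had correlations of their deviations of -0.178, 0.0836, 0.165 and -0.0575, which cannot decide it with so few libraries. With the replicate block, 0 members were lower, 0 were higher and the medians were 0.039 and -0.012. In PBS replicate 4, E2F2 rested on 20 fragments, so its depth limits that value.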

Other observations

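The AURKA level was 1.92 times that of AURKB in PBS replicate 4 and 1.09 to 1.44 times in the other 7 libraries. CDK2 was 1.29 to 1.63 times as abundant as CDK1, and E2F1 10.1 to 16.6 times as abundant as E2F2. Summed over the members, the mitotic members made up 982.3 FPKM and the S-phase members 805.0 FPKM in PBS replicate 4, while in PBS replicate 2 they made up 954.8 and 949.3 FPKM. The CHR match was also frequent in the windows of the 57 further mitosis genes with a window (68.4%), and the E2F match lay in 26.7% of the 45 windows of further replication genes, a lower share than in the members. These values were chosen after they were seen.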
